A study of Mus musculus with 4 samples.

Results

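Of 1138 genes with an *Olfr* symbol in the deposited matrices, 28 were detected with at least 50 transcripts, counted as unique molecular identifiers (UMIs), in cells of the neonatal mouse testis. The 28 were selected on that sum, taken over both matrices and over barcodes of 8000 or more UMIs, so their total abundance is how they were chosen and not a result. The matrices list 30828 genes in all. Transcripts were measured by droplet single-cell RNA-seq of the 3′ ends of mRNA, in testis cells sorted for CD9 and THY1 at postnatal day 8 (P8). Control mice were *Cnot3* flox/flox (called wild-type in the sample labels), and *Cnot3*-cKO mice were *Cnot3* flox/flox; *Ddx4*-creER. Cre-ER is driven in these animals by *Ddx4*, a germ cell gene, and both genotypes received 4-OHT, the active form of tamoxifen, from P1. The labels give a different last day of injection for each of the 4 samples, whereas the study's methods describe a single window, P1 to P3, for neonatal mice of both genotypes. Each genotype has 2 samples in the labels but 1 merged matrix, which is 1 library, so no comparison has a replicate check and no test was possible. Intervals are 95% and cover counting error only.

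Olfactory receptors are G protein-coupled receptors with 7 membrane-spanning segments that detect odorants on the cilia of olfactory sensory neurons. In the nose each neuron chooses 1 receptor gene, usually from 1 allele, and the receptor signals through a G protein (Gnal), adenylyl cyclase (Adcy3) and a cyclic nucleotide-gated channel (Cnga2). Transcripts of some receptor genes are known from testis and sperm, where a few receptors have been linked to chemotaxis, and most of the receptors named here have no assigned ligand.

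The matrices hold 8335 control and 9232 *Cnot3*-cKO barcodes of 8000 or more UMIs, with 181550221 and 168770743 UMIs in all barcodes. A barcode was counted as germ when *Ddx4* and *Dazl*, both germ cell RNA regulators, together reached 10 UMIs, which held for 1350 (16.2%) control and 563 (6.10%) *Cnot3*-cKO barcodes, with median depths of 42254.5 and 46017 UMIs. The other barcodes were mainly Sertoli-marker (*Amh*, *Sox9*, *Cldn11* and others; 2911 and 4360) or interstitial-marker (*Dcn*, *Pdgfra*, *Col1a1* and others; 3891 and 4082), named where 10 or more UMIs of one marker list were at least 2 times those of any other list, and their median depths lay between 12793 and 14042 UMIs. Levels are UMIs per 1000000 UMIs of the same barcodes (CPM). *Cnot3* itself was at 71.4 CPM (69.2 to 73.6) in control germ barcodes and 39.8 (37.4 to 42.3) in *Cnot3*-cKO germ barcodes, against 53.3 and 56.7 in the other barcodes. The libraries share 18 cell barcodes.

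What the family has in common is visible in the coding sequence at the end of the third membrane-spanning segment, where a 10-codon stretch is conserved. It is shown for 6 of the receptors on which the results turn, read from the GENCODE M21 transcripts (GRCm38), with the codons at the place of aspartate, arginine and tyrosine in capitals. The stretches shown begin between bases 346 and 361 of the coding sequence.
Olfr889: atggcctatGACAGATATgctgccatctgt
Olfr655: atggcctttGACCGCTTTgtggctgtgtgt
Olfr1369-ps1: atgtcctatGATCGTTTCacagctatttgt
Olfr1033: atggcttttGACAGGTACatggcaattgga
Olfr836: atggcctatGACCGCTTCatagccatttgt
Olfr837: atggcctatGACCGCTACatagccatttgt
All 3 residues are encoded in 22 of the 28 (78.6%) and in 78.7% of the 1110 other *Olfr* genes, and the 6 without them include *Olfr655*, *Olfr1369-ps1* and *Olfr836*. Coding sequences of the 28 ran from 918 to 1032 bases, and the 378 pairs among them were 50.8 to 90.9% identical with a median of 58.0%. The closest pair was *Olfr836* and *Olfr837*, at 90.9%. *Olfr1033* and *Olfr1034* followed at 75.6%.

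Few genes carried most of the signal. *Olfr889* had 5335 UMIs, *Olfr655* 2822 and *Olfr1369-ps1* 1544, together 73.3% of the 13226 UMIs of the 28. The remaining 25 genes had between 54 and 816 UMIs, with a median of 77. Just inside the limit were *Olfr1328*, *Olfr1385* and *Olfr1459* at 55 UMIs and *Olfr635* at 54, and just outside it *Olfr279* at 49, *Olfr1124* at 48, *Olfr552* at 47 and *Olfr39* at 46. Detection was sparse over the family, since 320 of the 1138 genes (28.1%) had any UMI, against 79.0% of all genes in the matrices.

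*Olfr889* lies on the plus strand at chr9:38115198-38121245, *Olfr655* on the minus strand at chr7:104595301-104601779 and *Olfr1369-ps1* on the plus strand at chr13:21111483-21119095 (GRCm38). The symbols *Olfr1369-ps1* and *Olfr718-ps1* carry a pseudogene suffix, while GENCODE M21 gives all 28 a protein-coding model. The 28 are spread over 11 chromosomes, with 6 on chromosome 7 and 5 on chromosome 9. All 28 GENCODE models run more than 100 bases past the coding end, where the 3′ assay reads, as do 96.9% of the 292 *Olfr* genes detected under the limit and 87.3% of the 818 with no UMI. Reads of *Olfr1369-ps1* may be shared with other genes, since 19.2% of the 60-base words in the last 500 bases of its transcripts recur elsewhere, against 6.46% for *Olfr889* and 0% for *Olfr655*. Neighbours on the same strand had few or no UMIs beside the 3 leading genes. *Olfr888*, 3.82 kb upstream of *Olfr889*, had 0 UMIs, *Olfr263*, 10.5 kb downstream of *Olfr1369-ps1*, had 0, and *Olfr658*, 41.1 kb upstream of *Olfr655*, had 2.

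Over all 28 genes, germ barcodes held more olfactory receptor transcripts, in CPM, than other barcodes in both libraries. The summed level in control was 70.6 CPM (68.4 to 72.8) in germ and 23.3 (22.4 to 24.3) in other barcodes, a log2 ratio of 1.60 (1.52 to 1.67). In *Cnot3*-cKO it was 105 (101 to 109) against 32.2 (31.2 to 33.3), a log2 ratio of 1.70 (1.63 to 1.77). With the 3 leading genes set aside, the other 25 summed to 14.9 and 9.18 in control and to 15.5 and 10.5 in *Cnot3*-cKO, log2 ratios of 0.70 and 0.56. Without barcodes of 10 or more UMIs of the receptor, an alternative chosen after seeing the data, the log2 ratio of the 28 was 0.32 (0.23 to 0.41) in control and 0.21 (0.11 to 0.31) in *Cnot3*-cKO. The sum therefore describes few genes and few cells, and single members went both ways.

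At least 2-fold higher levels in germ than in other barcodes of both libraries were found for 11 of the 28 (39.3%), against 26.1% of 17126 genes with the same minimum of UMIs. At least 2-fold lower levels were found for 6 of the 28 (21.4%), against 26.5%. The minimum is summed over both classes, so a gene near it can enter through the class where it is high. *Olfr316*, for example, had 86 control and 11 *Cnot3*-cKO germ UMIs among its 102. Totals were not matched between receptors and all genes, so the shares are not directly comparable and are not read as a trait of the receptors. The median log2 ratio of the 28 was 0.10 in control and 0.35 in *Cnot3*-cKO, against 0.07 and 0.04 over all genes. The levels of each gene in the 3 classes of barcodes are plotted on a log axis.

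**Figure D1:**
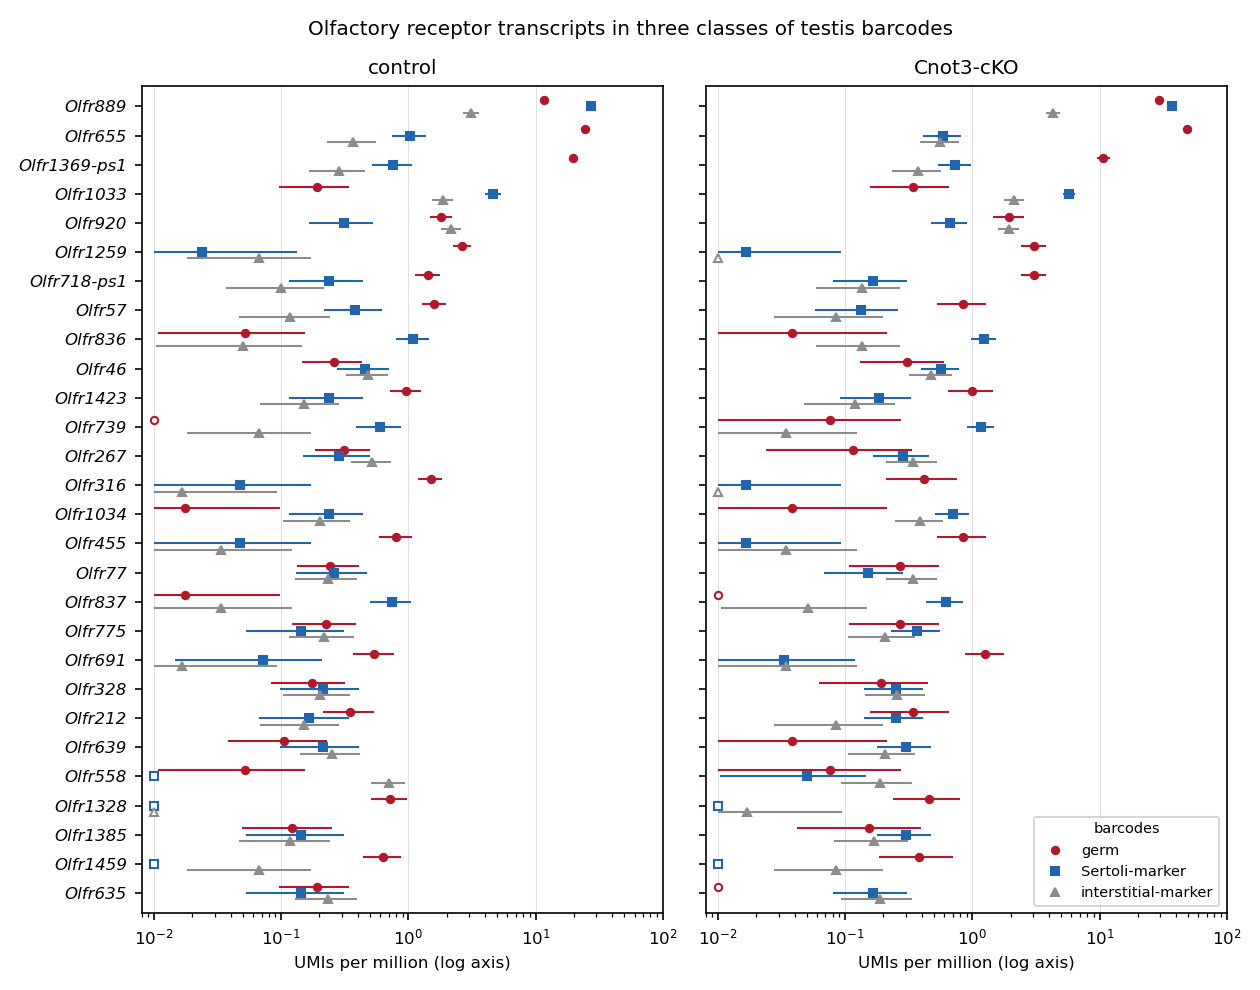
Level of each of the 28 olfactory receptor genes (rows, ordered by total UMIs) in CPM (UMIs per 1000000 UMIs) on a log axis, in germ, Sertoli-marker and interstitial-marker barcodes of the control (left) and Cnot3-cKO (right) library. Bars are 95% exact Poisson intervals cut off at the left edge, and open symbols at the left edge mark 0 UMIs. Olfr655 and Olfr1369-ps1 lie far to the right in germ barcodes, Olfr889 is high in Sertoli-marker barcodes too, and Olfr1033, Olfr836, Olfr837 and Olfr739 lie to the left in germ barcodes.

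On the germ side, *Olfr655* had 1397 UMIs in control germ barcodes and 68 in the other barcodes, or 24.3 against 0.646 CPM. In *Cnot3*-cKO it had 1284 and 73, or 49.0 against 0.592. The germ level was 37.7-fold higher in control and 82.8-fold higher in *Cnot3*-cKO, log2 ratios of 5.24 (4.88 to 5.61) and 6.37 (6.03 to 6.73). These folds are set over a low level, since barcodes of at most 100 UMIs, which hold free RNA, carried 10.6 and 14.3 CPM of *Olfr655*, and 18 of the 68 control UMIs lay in 1 barcode. The part of free RNA in the level of other barcodes was not tested. Without barcodes of 10 or more of its UMIs the log2 ratios were 3.49 (3.05 to 3.95) and 3.47 (3.07 to 3.89). *Olfr1369-ps1* had 1128 and 69 UMIs in control (19.6 against 0.655 CPM) and 281 and 66 in *Cnot3*-cKO (10.7 against 0.536), log2 ratios of 4.91 (4.55 to 5.28) and 4.32 (3.93 to 4.73), which were 1.96 and 2.02 without barcodes of 10 or more of its UMIs. *Olfr1259* had 152 against 7 UMIs in control and 80 against 6 in *Cnot3*-cKO, 39.8-fold and 62.8-fold higher in CPM. For each of these 3 genes every germ level stood above every level in other barcodes.

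Lower but also on the germ side were *Olfr316*, *Olfr1328*, *Olfr718-ps1*, *Olfr57*, *Olfr1423*, *Olfr455*, *Olfr691* and *Olfr1459*. *Olfr316* had 86 UMIs in control germ barcodes and 4 in other barcodes, and 11 and 1 in *Cnot3*-cKO. *Olfr1328* had 41 and 0 in control and 12 and 2 in *Cnot3*-cKO, and a count of 0 allows up to 0.0285 CPM there. *Olfr718-ps1* had 82 against 16 UMIs in control and 80 against 18 in *Cnot3*-cKO, log2 ratios of 3.23 (2.45 to 4.11) and 4.39 (3.64 to 5.21). Its nearest gene on the same strand, *Rbakdn*, 17.2 kb upstream, had 82 of its 87 UMIs in germ barcodes.

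The reverse pattern was seen in *Olfr1033*, *Olfr836*, *Olfr837*, *Olfr739* and *Olfr1034*, whose germ levels were below those of other barcodes with both intervals under 0. *Olfr1033* had 11 UMIs in control germ barcodes and 315 in other barcodes, and 9 and 481 in *Cnot3*-cKO, which gives log2 ratios of -3.96 (-4.98 to -3.11) and -3.51 (-4.64 to -2.57). An estimate of free RNA in germ barcodes, described with *Olfr889*, would bring 10.6 of the 11 and 8.55 of the 9 germ UMIs, so they are at background and not read as germ expression. *Olfr739* had 0 and 29 in control and 2 and 73 in *Cnot3*-cKO. *Olfr639*, the sixth gene past a 2-fold difference, had 6 against 26 and 1 against 31. *Olfr1033* and *Olfr1034* are neighbours, 690 bases apart on chromosome 2, and *Olfr836* and *Olfr837* lie 10.4 kb apart on chromosome 9, each pair on the same strand. The members of each of these pairs thus sit on the same side of the germ comparison. Another pair, *Olfr639* and *Olfr635*, lies 18.7 kb apart on opposite strands. Of these, only *Olfr639* was past a 2-fold difference in both libraries. Of the 60-base words in the last 500 bases of transcripts, 0% recur in other genes for *Olfr1033* and for *Olfr1034*. For *Olfr836* and *Olfr837* 7.37% and 4.88% recur, in the other member of the pair or in *Olfr830*. Whether reads were shared between the members of a pair was not tested.

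Within the other barcodes, *Olfr836*, *Olfr837*, *Olfr739* and *Olfr1033* were higher with the Sertoli markers, while *Olfr1034* was at 0.238 CPM in Sertoli-marker and 0.200 in interstitial-marker barcodes of control and at 0.699 and 0.391 in *Cnot3*-cKO. *Olfr836* was at 1.10 CPM (0.802 to 1.46) in control Sertoli-marker barcodes and 0.0501 in interstitial-marker barcodes, and at 1.23 and 0.136 in *Cnot3*-cKO. *Olfr837* was at 0.738 and 0.0334 in control and at 0.616 and 0.0510 in *Cnot3*-cKO. *Olfr739* was at 0.595 (0.385 to 0.879) and 0.0668 in control, and at 1.17 and 0.0340 in *Cnot3*-cKO. *Olfr1033* was less divided, at 4.67 and 1.87 in control and 5.73 and 2.14 in *Cnot3*-cKO. Sertoli-marker levels above interstitial-marker levels in both libraries, by intervals above 0, were found for 6 of 23 receptors, against 45.7% of 16314 genes, among those with more than 3 UMIs in either class of each library. The opposite held for 1 of 23, *Olfr920*, against 30.2% of genes. Interval width depends on the UMIs of a gene, which were not matched, so these shares are not directly comparable.

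*Olfr920* and *Olfr558*, the latter chosen after its values were seen, were highest in interstitial-marker barcodes of control. *Olfr920* stood at 2.17 (1.81 to 2.58) CPM there in control and 1.94 in *Cnot3*-cKO, against 0.310 and 0.666 in Sertoli-marker barcodes, and at 1.81 and 1.95 in germ barcodes. Its neighbour *Vwa5a*, 8.96 kb upstream on the same strand, had 5707 UMIs against its own 464, the only neighbour of the 10 leading genes with more UMIs than the receptor. *Olfr558* had 42 of its 45 control UMIs in interstitial-marker barcodes and none in Sertoli-marker barcodes, and the 42 came from few cells, since 16 barcodes in all carried its UMIs outside germ. *Olfr46* stood between 0.261 and 0.566 CPM in the 3 classes of both libraries, and 53.6% of the 60-base words in the last 500 bases of its transcripts also occur in other genes.

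*Olfr889* was high in germ barcodes and higher still in Sertoli-marker barcodes. In control it was at 11.7 CPM (10.8 to 12.6) in germ, 27.1 (25.5 to 28.7) in Sertoli-marker and 3.11 (2.68 to 3.59) in interstitial-marker barcodes. In *Cnot3*-cKO the values were 29.5 (27.4 to 31.6), 37.0 (35.5 to 38.6) and 4.30 (3.79 to 4.86). The order was the same in both libraries, with intervals that do not overlap within a library. Against all other barcodes its germ level had log2 ratios of -0.14 (-0.28 to -0.01) and 0.52 (0.40 to 0.63), which were -0.99 and -0.66 without barcodes of 10 or more of its UMIs. Its Sertoli-marker level was 8.71-fold its interstitial-marker level in control and 8.60-fold in *Cnot3*-cKO. Sertoli-marker barcodes with 2 or more UMIs of the proliferation genes *Top2a* and *Mki67* held 32.5 CPM of it in control and 43.9 in *Cnot3*-cKO, against 25.2 and 35.2 in those with 0. Barcodes of at most 100 UMIs, which hold free RNA, carried 28.8 CPM of *Olfr889* in control and 60.2 in *Cnot3*-cKO. Free RNA was estimated from Sertoli markers at 8.51% and 7.18% of germ UMIs, which would bring 141 of the 670 control and 113 of the 771 *Cnot3*-cKO germ UMIs of *Olfr889*, 51.7 of 1397 and 26.9 of 1284 of *Olfr655*, and 24.8 of 1128 and 2.33 of 281 of *Olfr1369-ps1*.

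The 3 leading receptors were not spread evenly over germ cells. Any UMI of *Olfr655* was seen in 15.6% of the control germ barcodes (210 of 1350) and in 20.8% of those of *Cnot3*-cKO (117 of 563). Yet 37 control barcodes with 10 or more of its UMIs, 2.74% of germ barcodes, held 78.1% of its germ UMIs, and 31 *Cnot3*-cKO barcodes (5.51%) held 86.6%. The richest control barcode had 98 UMIs and the richest of *Cnot3*-cKO 97. *Olfr1369-ps1* was carried by still fewer cells, with 89.6% of its control germ UMIs in 28 barcodes (2.07%) and 79.7% of its *Cnot3*-cKO germ UMIs in 8 (1.42%), and a maximum of 85 and 43. *Olfr889* had 44.5% of its germ UMIs in 17 control barcodes (1.26%) and 56.0% in 20 *Cnot3*-cKO barcodes (3.55%), with a maximum of 33 and 80.

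**Figure D2:**
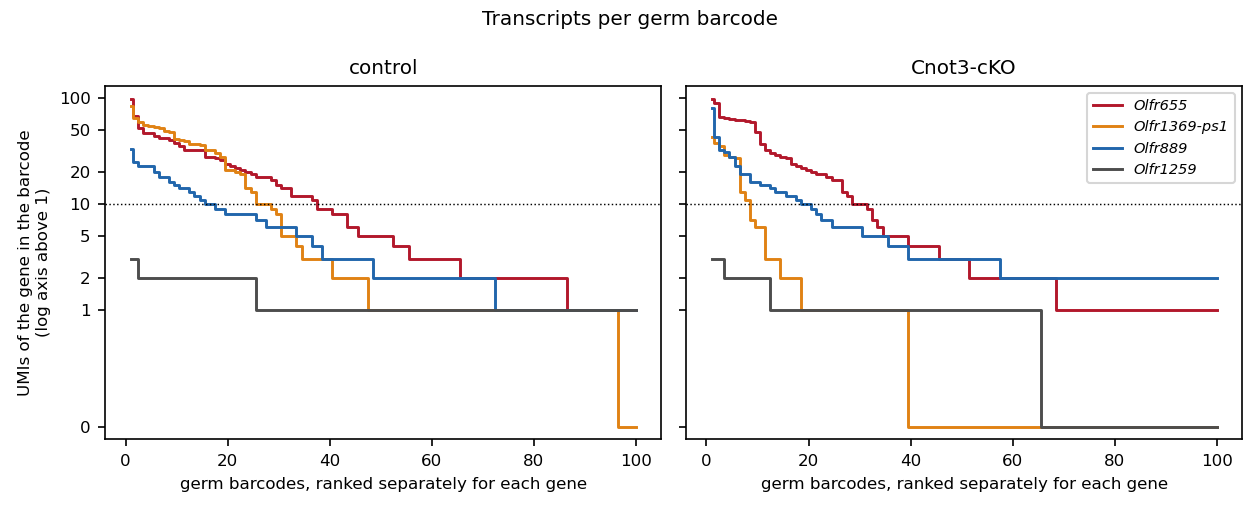
UMIs per germ barcode for 4 receptor genes, with the 100 richest germ barcodes ranked separately for each gene (x axis) and the UMIs of that gene in the barcode on the y axis (log above 1), in the control (left) and Cnot3-cKO (right) library. The dotted line is at 10 UMIs. Olfr655, Olfr1369-ps1 and Olfr889 start at 98, 85 and 33 UMIs in control and at 97, 43 and 80 in Cnot3-cKO, while Olfr1259 starts at 3 in both.

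In Sertoli-marker barcodes *Olfr889* was spread over many cells. It had UMIs in 711 of 2911 control (24.4%) and 1229 of 4360 *Cnot3*-cKO Sertoli-marker barcodes (28.2%), with at most 8 and 11 UMIs in one barcode. In interstitial-marker barcodes the share was 3.83% and 4.85%. The remaining 25 receptors had no germ barcode with 10 or more UMIs, and 21 of the 25 in each library had at most 2 UMIs in any germ barcode. The highest was *Olfr1423*, at 7 in control and 5 in *Cnot3*-cKO. *Olfr1259* had its 152 control UMIs in 125 barcodes and its 80 *Cnot3*-cKO UMIs in 65, with at most 3 in one.

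Depth differs between the classes, so each barcode was also thinned to 8000 UMIs. Thinned germ barcodes held *Olfr655* in 6.22% of cases (4.99 to 7.65) for control and 10.3% (7.92 to 13.1) for *Cnot3*-cKO. Sertoli-marker barcodes held it in 0.481% and 0.321%, and interstitial-marker barcodes in 0.206% and 0.367%. *Olfr1369-ps1* was in 3.19% and 2.13% of germ, 0.447% and 0.275% of Sertoli-marker, and 0.154% and 0.196% of interstitial-marker barcodes. *Olfr889* was detected in 6.07% (4.86 to 7.48) and 12.8% (10.1 to 15.8) of germ, 16.9% and 20.2% of Sertoli-marker, and 2.08% and 3.18% of interstitial-marker barcodes. At least 1 of the 28 was found in germ barcodes at a share of 23.4% in control and 29.8% in *Cnot3*-cKO, 24.2% and 29.2% of Sertoli-marker barcodes, and 8.33% and 9.09% of interstitial-marker barcodes. Without thinning the shares were 62.0% and 67.7%, 35.8% and 40.3%, and 14.7% and 14.99%.

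The concentration was set beside that of all genes with a germ total within 2-fold of the receptor's. The median of such genes had 0% of its control germ UMIs in barcodes of 10 or more, and in *Cnot3*-cKO 2.77% for genes like *Olfr655* and 0% for the others. In control, 27 of 4007 genes (0.674%) were at or above *Olfr889*, 5 of 4491 (0.111%) at or above *Olfr655*, and 0 of 4463 at or above *Olfr1369-ps1*. In *Cnot3*-cKO the numbers were 28 of 4323 (0.648%), 1 of 3838 (0.0261%) and 1 of 4079 (0.0245%). The 5 above *Olfr655* in control, named after their values were seen, were *Acta2*, *Col4a4*, *Olfr1369-ps1* and the non-coding transcripts *RP23-167L1.7* and *RP24-273K21.5*. Those above *Olfr889* included *Amh*, *C1qa* and *C1qb*, which belong to Sertoli cells and macrophages.

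**Figure D3:**
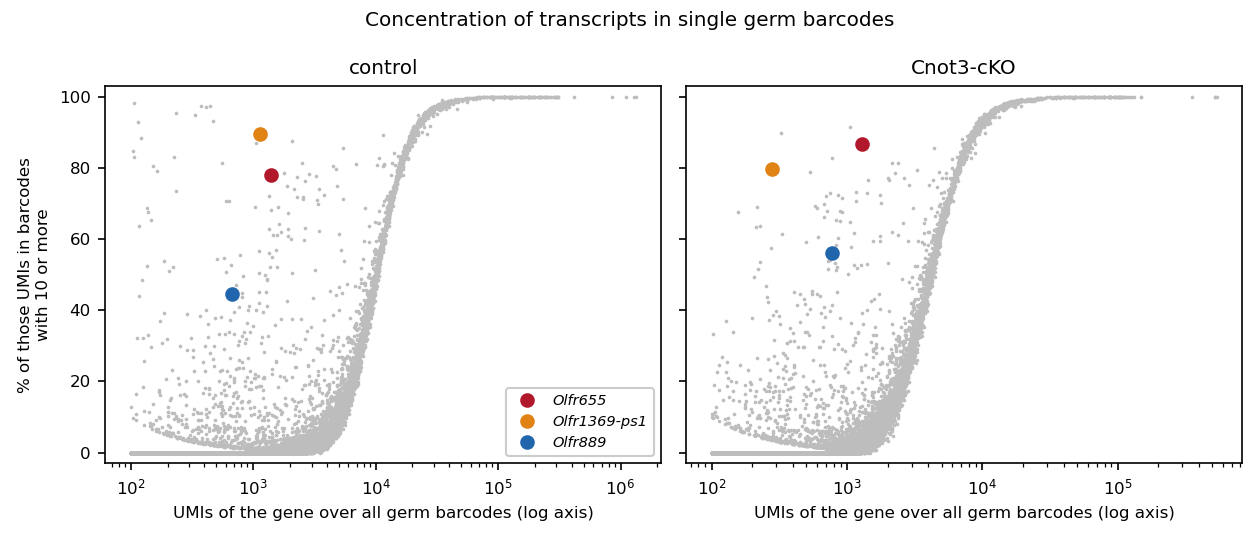
Each grey point is a gene with 100 or more UMIs over the germ barcodes of the control (left) or Cnot3-cKO (right) library, at its germ total on the x axis (log) and the percentage of those UMIs found in barcodes with 10 or more on the y axis. Coloured points are Olfr655 (78.1% and 86.6%), Olfr1369-ps1 (89.6% and 79.7%) and Olfr889 (44.5% and 56.0%), which lie above nearly all genes of like total.

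Barcodes rich in one of these receptors were seldom rich in another. Of the 80 control germ barcodes with 10 or more UMIs of any of the 3 (5.93% of germ barcodes), 78 were rich in 1 and 2 in 2. In *Cnot3*-cKO 49 of 54 (9.59%) were rich in 1 and 5 in 2. *Olfr655* was at 10 or more UMIs in 1 of the 17 control and 4 of the 20 *Cnot3*-cKO barcodes rich in *Olfr889*, against 2.74% and 5.51% of all germ barcodes. No barcode was rich in all 3. With counts this small neither exclusion nor association can be read from them.

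Germ barcodes rich in a receptor had germ marker levels near those of germ barcodes without it. The summed germ markers were at 3984 CPM in the 37 control barcodes rich in *Olfr655* and 3834 in the 1140 without it, and at 4195 and 3880 in *Cnot3*-cKO. Median depth was 45931 and 42108 UMIs in control, and the summed Sertoli markers were at 289 and 263 CPM. For *Olfr889* the Sertoli markers were at 199 CPM in rich barcodes and 239 in those without it in control, and at 107 and 319 in *Cnot3*-cKO. The control barcodes rich in *Olfr655* held less *Ret* (14.4 against 40.2 CPM), a receptor of spermatogonial stem cells, and more *Kit* (86.3 against 42.7) and *Stra8* (272 against 190), which mark differentiating spermatogonia. In *Cnot3*-cKO *Ret* was at 38.7 and 52.2, *Kit* at 30.7 and 35.8 and *Stra8* at 234 and 114. The *Kit* difference thus had opposite signs in the libraries. Barcodes rich in *Olfr1369-ps1* had *Ret* at 61.6 against 37.9, *Kit* at 41.3 against 46.1 and *Stra8* at 191 against 191 in control. Its 8 rich barcodes in *Cnot3*-cKO had *Ret* at 58.8 against 49.4, *Kit* at 20.4 against 36.4 and *Stra8* at 164 against 124. In control, *Ret* was thus lower with *Olfr655* and higher with *Olfr1369-ps1*. Single genes did not always follow their list. Summed stem markers (*Gfra1*, *Id4*, *Ret* and others) were at 176 against 154 CPM with *Olfr1369-ps1* in control. In *Cnot3*-cKO they were at 174 against 351, and *Gfra1* at 30.7 against 44.6. With *Olfr655* the sums were 82.8 against 161 and 292 against 357. *Dmrtb1*, a differentiating marker, was at 46.0 against 29.8 with *Olfr655* in control and at 10.0 against 24.1 in *Cnot3*-cKO.

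Germ barcodes were split by raw UMIs of stem markers (*Gfra1*, *Id4*, *Ret* and others) and of differentiating markers (*Kit*, *Stra8*, *Dmrtb1* and others). Those with more of the stem markers numbered 95 in control and 111 in *Cnot3*-cKO, and those with the reverse 1191 and 427. The lists differ in abundance, so the differentiating range also takes in barcodes with stem marker transcripts. In control it held 691 *Gfra1* and 1577 *Ret* UMIs, against 303 and 463 in the stem range. The levels were 13.6 and 31.0 CPM in the differentiating range and 75.4 and 115 in the stem range. *Olfr655* was at 10.4 CPM in the stem range and 25.7 in the differentiating range of control, but at 55.1 and 47.8 in *Cnot3*-cKO. The log2 ratios, 1.30 (0.85 to 1.78) and -0.21 (-0.40 to -0.01), lie on opposite sides of 0. *Olfr889* was at 9.95 and 11.6 in control and 17.2 and 31.0 in *Cnot3*-cKO. *Olfr1369-ps1* was at 11.2 and 19.6 in control and 10.3 and 10.9 in *Cnot3*-cKO. In the control stem range only 2 barcodes were rich in *Olfr655*, 2 in *Olfr1369-ps1* and 1 in *Olfr889*, and in that of *Cnot3*-cKO 7, 1 and 1, so these values rest on few cells. *Olfr1259*, with no rich barcode, was at 3.98 and 2.50 in control and 5.86 and 2.44 in *Cnot3*-cKO, log2 ratios of differentiating over stem of -0.67 (-1.43 to 0.18) and -1.27 (-1.96 to -0.55).

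Between the genotypes, the summed level of the 28 in germ barcodes was 0.57 (0.50 to 0.64) higher in *Cnot3*-cKO on the log2 scale, and in other barcodes 0.47 (0.39 to 0.54) higher. The 25 genes without the leading 3 differed by 0.05 (-0.12 to 0.23) in germ barcodes. The make-up of germ barcodes differed between the libraries, with 95 in the stem range and 1191 in the differentiating range of control, and 111 and 427 in *Cnot3*-cKO. Its part in the genotype values was not tested. At least 2-fold higher levels in *Cnot3*-cKO germ barcodes were found for 4 of 23 receptors with more than 3 germ UMIs in at least 1 library, *Olfr889*, *Olfr655*, *Olfr718-ps1* and *Olfr691*, against 4.41% of 16763 genes. At least 2-fold lower levels were found for 3, *Olfr267*, *Olfr316* and *Olfr639*, against 2.43%. *Olfr267* had 18 germ UMIs in control and 3 in *Cnot3*-cKO, and *Olfr639* had 6 and 1, so their intervals include 0. By intervals, 4 of 23 lay above 0, against 26.9% of genes, and 4 below, *Olfr1369-ps1*, *Olfr57*, *Olfr316* and *Olfr635*, against 22.3%. Whether an interval leaves out 0 depends on the UMIs of a gene. A gene with few UMIs also passes a 2-fold difference more easily by counting error. Totals were not matched between receptors and all genes, so neither the shares by fold nor those by intervals are directly comparable.

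*Olfr889* went from 11.7 to 29.5 CPM between the control and *Cnot3*-cKO germ barcodes, a log2 difference of 1.34 (1.18 to 1.49), and 2.09% of all genes had a difference as high. *Olfr655* went from 24.3 to 49.0, a difference of 1.01 (0.90 to 1.12). *Olfr718-ps1* went from 1.43 to 3.06 (1.10, 0.64 to 1.56) and *Olfr691* from 0.540 to 1.26 (1.22, 0.47 to 1.98). *Olfr1369-ps1* went the other way, from 19.6 to 10.7 (-0.87, -1.07 to -0.68), as did *Olfr57*, from 1.60 to 0.840 (-0.93, -1.67 to -0.25), and *Olfr316*, from 1.497 to 0.420 (-1.83, -2.89 to -0.92). *Olfr635* had 11 UMIs in control germ barcodes and 0 in *Cnot3*-cKO, which allows up to 0.115 CPM. *Olfr920* (0.11, -0.41 to 0.60), *Olfr1259* (0.21, -0.20 to 0.61) and *Olfr46* (0.23, -1.22 to 1.56) had intervals that include 0, as did *Olfr1033* (0.84, -0.60 to 2.25).

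For the leading receptors the genotype values rest on few cells. Without barcodes of 10 or more of its own UMIs, *Olfr889* was still higher in *Cnot3*-cKO germ barcodes by 0.9996 (0.78 to 1.22), *Olfr655* by 0.30 (0.02 to 0.58), and *Olfr1369-ps1* stood at 0.10 (-0.39 to 0.56). Its rich barcodes were 28 of 1350 germ barcodes in control (2.07%) and 8 of 563 in *Cnot3*-cKO (1.42%). This alternative was chosen after seeing the data. Counting intervals treat UMIs as independent, and 28 rich barcodes are far fewer independent units than 1128 UMIs, so those intervals are too narrow.

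**Figure D4:**
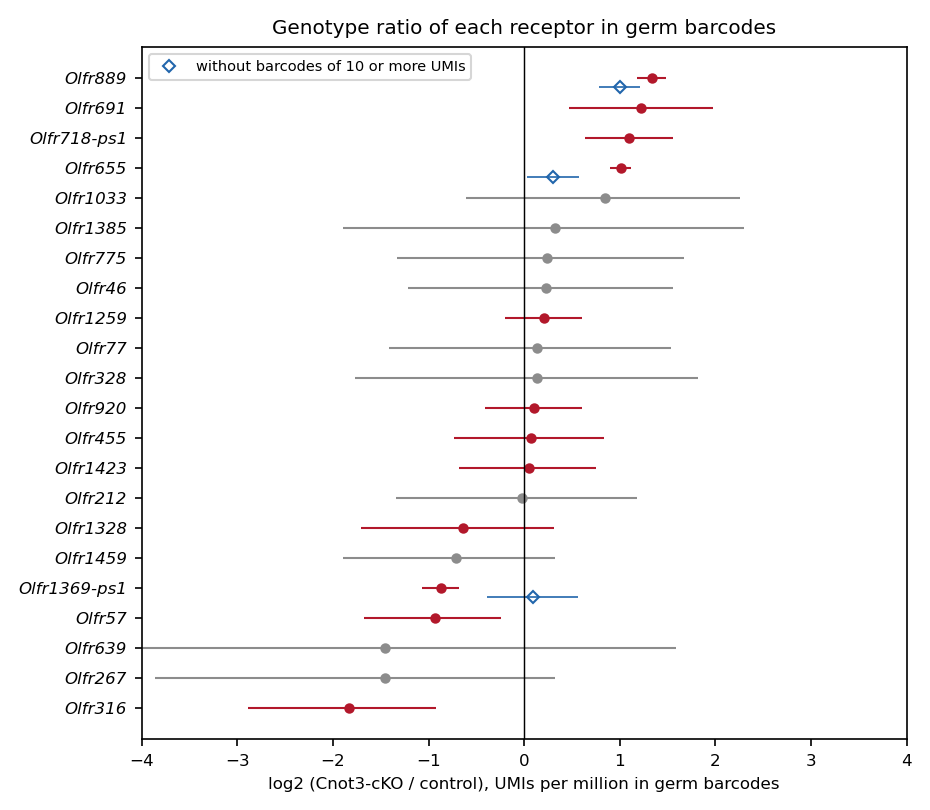
Log2 ratio of Cnot3-cKO over control in CPM of germ barcodes for the receptor genes with more than 3 germ UMIs in at least 1 library and none at 0. Circles and bars are the ratio and its 95% interval, red for genes with 50 or more germ UMIs over both libraries and grey for the rest, and blue diamonds repeat the 3 leading genes without barcodes of 10 or more of their own UMIs. Olfr1369-ps1 moves from -0.87 to 0.10, and Olfr889 from 1.34 to 0.9996.

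In the other barcodes, at least 2-fold higher levels in *Cnot3*-cKO were found for 2 of 27 receptors, *Olfr739* and *Olfr1034*, against 1.05% of 16862 genes, and lower levels for 4, *Olfr57*, *Olfr316*, *Olfr455* and *Olfr558*, against 1.97%. By intervals 4 were higher, *Olfr889*, *Olfr1033*, *Olfr739* and *Olfr1034*, against 26.7% of genes, and 2 lower, *Olfr57* and *Olfr558*, against 20.1%. As in germ barcodes, UMI totals were not matched, so neither the shares by fold nor those by intervals are directly comparable. The make-up of these barcodes differed between the libraries, with more Sertoli-marker barcodes in *Cnot3*-cKO, so the Sertoli-marker values are given beside them. *Olfr889* was higher by 0.68 (0.58 to 0.78) in other barcodes and by 0.45 (0.35 to 0.56) in Sertoli-marker barcodes. *Olfr1033* was higher by 0.38 and 0.29, *Olfr739* by 1.11 (0.47 to 1.78) and 0.97 (0.29 to 1.69), and *Olfr1034* by 1.15 and 1.55. *Ddx4*-creER acts in germ cells, and whether Sertoli cell make-up, free RNA or library differences have a part in these values was not tested.

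The genes that serve odorant receptors in the nose were checked from lists of signalling (16 genes), export (8) and choice (14) factors. In signalling, 4 of the 12 genes past the minimum were at least 2-fold higher in germ barcodes of both libraries (*Gng13*, *Pde1c*, *Slc24a4* and *Arrb2*) and 3 lower (*Gnas*, *Cngb1* and *Adrbk2*), against 26.1% and 26.5% of all genes, so the counts are near background. The 3 with most UMIs were *Gnas*, a stimulatory G protein subunit, at 140 CPM in control germ and 1453 in other barcodes, *Gnb1* at 375 and 230, and *Arrb2*, an arrestin, at 56.8 and 9.79. *Gng13*, a G protein subunit of olfactory neurons, was at 44.3 in germ and 4.38 in other control barcodes and at 35.8 and 2.74 in *Cnot3*-cKO. Of the olfactory forms, *Gnal* had 82 UMIs in all, *Cnga2* 9 and *Cnga4* 7, while *Adcy3* was even, at 12.9 and 13.6. *Omp*, the marker of mature olfactory neurons, had 46 UMIs, *Ano2* 15 and *Stoml3* 6. Of the 8 olfactory neuron markers 2 passed the minimum, *Gng13*, higher in germ barcodes, and *Gap43*, lower in them.

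Among export factors, which bring receptors to the cell surface, *Rtp1* had 0 UMIs and *Rtp2* 2, the most abundant were *Reep1* (5.87 in germ and 52.2 in other control barcodes), *Hspa2* and *Reep6*, and of the 5 past the minimum 1 was higher (*Reep6*) and 2 lower in germ. Of the 14 choice factors 4 were higher in germ (*Lhx2*, *Ebf2*, *Ebf3* and *Lbr*) and 4 lower (*Ebf1*, *Emx2*, *Atf5* and *Ddit3*), again near the shares of all genes, 26.1% and 26.5%. *Lhx2*, a homeodomain factor needed for receptor choice, was at 10.1 against 0.342 CPM in control and 8.60 against 0.325 in *Cnot3*-cKO. *Ebf1*, with most UMIs of the list, was at 14.2 and 261 in control. Its companions were *Bptf* (164 and 154) and *Cbx5* (81.7 and 149). Between the genotypes 0 genes of the 3 lists were at least 2-fold higher in germ barcodes and 1 was lower, where 4.41% and 2.43% of all genes were, so lists of this size would hold few such genes at the background share.

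Barcodes of at least 1000 but under 8000 UMIs did not enter the choice of the 28, and they gave few but separate counts. There *Olfr655* had 6 UMIs in the 164 control barcodes with 2 or more UMIs of *Ddx4* and *Dazl*, 8.22 CPM, and 4 in the 1077 without any, 0.943 CPM, a log2 ratio of 3.12 (1.05 to 5.39). In *Cnot3*-cKO it had 3 and 5 UMIs, 8.47 and 0.716 CPM (3.56, 0.88 to 5.93). Sertoli-marker barcodes of this depth held 23.7 CPM of *Olfr889* in the control library and 23.9 in the other. *Olfr1033* had 0 germ UMIs in both libraries, against 13 and 38 in barcodes without *Ddx4* and *Dazl*. *Olfr1369-ps1* had 0 germ UMIs and 1 in the barcodes without germ markers in control, and 2 and 1 in *Cnot3*-cKO. *Olfr836*, lower in the deeper germ barcodes, had 2 against 7 UMIs in control, or 2.74 against 1.65 CPM (log2 0.73, -2.57 to 3.12), and 0 against 4 in *Cnot3*-cKO. At this depth *Olfr655* was higher in germ barcodes of both libraries, and the intervals of *Olfr889*, *Olfr1033* and *Olfr836* include 0. No ratio is called for *Olfr1369-ps1*, whose counts were all 3 or fewer.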

How the data were processed

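The authors sequenced 10x Genomics 3′ libraries of sorted P8 testis cells and aligned and counted the reads against mm10 with Cell Ranger (version 3.0.1 in the submitters' processing notes). The deposited matrices hold raw UMI counts per gene and barcode, unfiltered, 1 for each genotype, in which the 2 labelled samples of that genotype are merged. From these counts, barcodes with at least 8000 UMIs were kept, which hold 89.7% of control and 88.5% of *Cnot3*-cKO UMIs. No doublet caller was run. Germ barcodes had 10 or more UMIs of *Ddx4* plus *Dazl*, and 28 and 22 barcodes lay just under that limit, at 5 to 9 UMIs. A class boundary on a marker sum is a range and not a cell type.

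CPM was computed from summed counts with exact Poisson intervals, ratios with exact conditional intervals, and shares with Clopper-Pearson intervals (scipy 1.17.1, numpy 2.4.6, pandas 2.3.3, Python 3.11.15). A count of 0 was given the limit of 3 counts, and a ratio was not called where both counts were 3 or fewer. UMIs of a few rich barcodes are not independent, so intervals are too narrow for such genes. Tested on simulated counts for germ over other barcodes of control (16007 genes, 200 changed), the intervals held the true value for 95.5% of genes. Those counts were drawn as Poisson counts, which the intervals assume. The simulation therefore checks the calculation only, and not the coverage for UMIs concentrated in few barcodes.

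Receptors were named if they were *Olfr889* or *Olfr655*, among the 10 with most UMIs, among the 5 at either end of the germ comparison, apart from 0 between the genotypes in germ barcodes, or next to the limit of 50 UMIs. Receptors listed under a count are named with it, and *Olfr558* was chosen after its values were seen. Members and gene lists were chosen with earlier results of these data known. Gene positions are from GENCODE M21 on GRCm38. The genes were matched to promoter windows of RefSeq, but most windows began at the coding start, so no promoter is shown.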

Additional observations from a re-analysis of the deposited data

How the results depend on the processing

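No paired analysis was possible because each genotype has 1 matrix. Over 16 alternatives, the summed and counted results gave 56 values that stayed within their interval or within 1.5 times the count, and 26 that moved, and single receptors gave 115, 31 and 5 that turned direction. For the sum of the 28 as log2 germ over other in control (1.60), the value was 1.67 from 12000 UMIs per barcode, 1.87 with an upper bound of mean plus 2 SD of UMIs, 1.51 and 1.67 with members from 20 or 100 UMIs, 2.49 without *Olfr889*, 0.32 without barcodes of 10 or more UMIs of the receptor and 0.83 against Sertoli-marker barcodes. In *Cnot3*-cKO (1.70) it was 2.29 with at most 10% mitochondrial UMIs, 1.94 with the upper bound, 1.56 in germ barcodes with fewer somatic markers, 1.58 without each receptor's top barcode, 2.69 without *Olfr889*, 0.21 without rich barcodes and 1.02 against Sertoli-marker barcodes. *Cnot3*-cKO over control in germ (0.57) was 1.04 with at most 10% mitochondrial UMIs, 0.48 with fewer somatic markers, 0.35 without *Olfr889* and 0.37 without rich barcodes. In other barcodes (0.47) it was 0.15 without *Olfr889*, 0.38 in Sertoli-marker barcodes and 0.31 under another of the alternatives. The number of receptors was 17 with at most 10% mitochondrial UMIs, 56 from 20 UMIs and 14 from 100, and the number at least 2-fold higher in germ was 17 and 7 for the last 2. *Olfr889*, germ over other, turned in control to 0.052 (mitochondrial limit) and 0.20 (upper bound), and in *Cnot3*-cKO to -0.66 (no rich barcodes) and -0.33 (Sertoli-marker barcodes). *Olfr1369-ps1*, *Cnot3*-cKO over control in germ, turned to 0.10 without rich barcodes. Leaving out rich barcodes and using Sertoli-marker barcodes were chosen after seeing the data. Where an alternative does not by its construction remove the receptor or barcodes concerned, the cause was not tested. With 1 library per genotype, library and genotype cannot be told apart.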

Other observations

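Under the limit of 50 UMIs, 5 receptor genes, chosen after their values were seen, had a germ barcode with 10 or more UMIs. *Olfr1441* had 21 of its 22 control cell UMIs in 1 barcode, *Olfr285* 17 of 20 and *Olfr279* 11 of 43. In *Cnot3*-cKO, *Olfr1293-ps* had all 16 of its UMIs in 1 barcode and *Olfr286* 16 of 19. All 5 barcodes had between 52 and 89 UMIs of *Ddx4* plus *Dazl*.

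Rich barcodes outside the germ class were few. *Olfr655* reached 18 UMIs in a control barcode with 0 UMIs of *Ddx4* plus *Dazl* and 163 of Sertoli markers. *Olfr1369-ps1* reached 14 in a control barcode with 6 UMIs of *Ddx4* plus *Dazl*, and *Olfr889* reached 11 in a *Cnot3*-cKO barcode with 627 UMIs of Sertoli markers.

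*Olfr16*, a receptor known from sperm, had 0 UMIs in both libraries, which allows up to 0.0522 CPM in control and 0.115 CPM in *Cnot3*-cKO germ barcodes. *Olfr78* had 4 UMIs, none of them in germ barcodes. Both were chosen after their values were seen.

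Among other chemoreceptor families, 4 of 229 *Vmn1r* genes reached 50 UMIs, led by *Vmn1r90* with 492, as did 1 of 3 *Tas1r* genes, *Tas1r1* with 97. None of 123 *Vmn2r*, 34 *Tas2r*, 15 *Taar* or 7 *Fpr* genes did. The share of *Olfr* genes was 2.46%.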
